A study of Drosophila melanogaster with 8 samples.

Results

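Cholinergic neurons of the late Drosophila embryo were taken as the cells of a whole-embryo single-cell library that held at least 2 UMIs of VAChT, the vesicular acetylcholine transporter, and at least 1 UMI of nSyb, a synaptic vesicle protein of neurons. A UMI (unique molecular identifier) stands for 1 captured RNA molecule. Members also had to hold no UMI of Gad1 (GABA synthesis), VGlut (vesicular glutamate transport), Vmat (vesicular monoamine transport), ppk, ppk26 and iav (channels of sensory neurons) or repo (the transcription factor of glia). By this rule 1714 of 27932 kept cells were members, which is 6.14% of kept cells and 19.4% of the 8823 kept cells with nSyb.

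Embryos of stage 17, aged 17 to 18.5 h at 25 °C, were pooled, surface-sterilised and dissociated whole, so the neurons came from the brain, the ventral nerve cord (VNC) and the periphery alike. All 8 samples were 4 replicates in 2 lanes each, and all carried alrm-gal4 driving UAS myr::GFP together with 25H07-gal4 driving UAS-redstinger::NLS. No cell was sorted on either reporter, and there was no wild-type or untreated group. The single-cell 3′ libraries were deposited as 1 matrix whose barcodes carry library numbers 1 to 8, and no source used here assigns a number to a sample.

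Acetylcholine is the main fast excitatory transmitter of the insect central nervous system (CNS), where vertebrates use glutamate. It is made by choline acetyltransferase (ChAT), loaded into vesicles by VAChT, split in the synaptic cleft by acetylcholinesterase (Ace), and its choline is taken back up by a choline transporter (ChT). Receiving neurons sense it through nicotinic receptors, which are ion channels of 5 subunits, and through muscarinic receptors, which act through G proteins. Most sensory neurons of the fly, mechanosensory and chemosensory alike, are themselves cholinergic, and photoreceptors of the larval eye include cholinergic cells.

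Library numbers n and n + 4 shared nearly all of their barcodes (at least 99.56% of the smaller set, against at most 0.42% for any other combination), so each such pair was summed to 1 set of cells, giving 4 library pairs. Library pair 1 stood apart. It held 131 members (1.79% of its kept cells), whereas pairs 2, 3 and 4 held 563, 474 and 546 (8.54, 6.62 and 7.95%). Neurons as a whole were fewer there, with 975 kept cells with nSyb against 2299 to 2884 in the other pairs, and muscle cells made up 8.47% of kept cells, against 2.93 to 3.22%. Within nSyb cells the members were 13.4% in pair 1 and 19.5, 20.6 and 20.5% in pairs 2 to 4. Each level below is therefore given per pair, in counts per 1000000 UMIs of the class (CPM), in the order of pairs 1 to 4. An exact paired test over 4 pairs cannot reach a p below 0.125, so no p-value is given, and a gene was called higher or lower where the summed UMIs differed at least 2-fold and all 4 pairs had the same direction, both with 0.5 UMI added to each sum. In the smaller class a pair without a UMI can take its direction from that addition, so the calls were repeated with the direction taken from CPM with nothing added, an alternative chosen after the data had been seen. All genes called higher in cholinergic neurons were called again, and the genes called lower became 155 of 212 over GABAergic and 153 of 197 over glutamatergic neurons.

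The members were set beside 686 GABAergic neurons (Gad1 at least 2 UMIs) and 622 glutamatergic neurons (VGlut at least 2 UMIs), which had to hold nSyb and, in the same manner, no UMI of the other classes' genes. The members were deeper, with a median of 3455.5 UMIs per cell, against 2576.5 in GABAergic and 2610 in glutamatergic neurons. Levels in CPM take the total into account. Shares of cells with a UMI of ChAT or nAChRalpha1 are also given after every cell was thinned to 1000 UMIs. Other shares are given at full depth only. Both comparisons use the same cholinergic cells, so their results are not independent of each other.

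The label of neuron, not that of cholinergic, was checked against markers that the rule did not use. The condition on nSyb already selects neurons, and 7109 of the 26218 other kept cells held nSyb. The pan-neuronal RNA-binding protein gene elav had 1147, 1196, 954 and 1023 CPM in the cholinergic neurons, against 1263, 1251, 1202 and 1028 CPM in GABAergic and 697, 1139, 845 and 1175 CPM in glutamatergic neurons. It was detected in 93.1% of members, and its levels in the 3 neuron classes overlapped. Set against all other kept cells as a description, the members were called higher for 21 of 21 synaptic vesicle and active zone genes, 22 of 22 voltage-gated channel genes, 3 of 3 ELAV family genes and 31 of 31 dpr and DIP genes, where 2232 of 12288 genes tested were called higher (18.2%) and 1934 lower (15.7%). They were called lower for 8 of 9 muscle genes and 10 of 10 hemocyte and fat body genes. The other lists were less clear. Of 7 glia markers 3 were called lower, and of 7 neuroblast and division markers 1 was (median log2 ratio 0.59). Of 8 epidermis, trachea and gut markers 1 was called higher and 2 lower (median 0.11).

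Among the genes of acetylcholine metabolism, ChAT and ChT were called higher in cholinergic neurons in both comparisons and Ace in neither. ChAT had 103, 274, 244 and 239 CPM in cholinergic neurons (215 ± 76.5, SD, n = 4 library pairs), against 7.66, 22.6, 28.0 and 6.69 CPM in GABAergic (16.2 ± 10.7) and 12.8, 25.7, 12.2 and 26.5 CPM in glutamatergic neurons (19.3 ± 7.86). The cholinergic values lay above all values of both other classes. The log2 ratio of the summed UMIs was 3.67 over GABAergic (3.09 to 5.02 over pairs) and 3.55 over glutamatergic neurons (2.79 to 4.26). ChAT was detected in 58.1% of cholinergic, 4.66% of GABAergic and 5.47% of glutamatergic neurons, and in 1.2% of 1246 muscle cells, which served as a background. After thinning the shares were 25.8, 2.5, 2.13 and 0.0848%. Muscle cells had to hold at least 3 UMIs of Mhc and no UMI of nSyb or repo, and 619 of them came from pair 1. That condition removes cells with free nSyb RNA, so shares in muscle cells can understate free neuronal RNA.

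ChAT and VAChT are not fully separate genes. In the annotation BDGP6.54 ChAT spans chromosome 3R from 18705501 to 18732344 on the forward strand and VAChT lies inside it, from 18705501 to 18718916, and both begin with the same exon of 606 bases (18705501 to 18706106). Reads in that exon cannot be told apart between both genes, while the other exons differ. ChAT is therefore tied to the rule through the locus, and ChT is the more separate measure of the same pathway.

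ChT, listed under its older symbol CG7708 in the files, had 72.9, 172, 146 and 157 CPM in cholinergic neurons, against 0, 4.52, 12 and 10.7 CPM in GABAergic and 8.56, 6.16, 11.1 and 25.0 CPM in glutamatergic neurons. No cholinergic value overlapped with either class. The log2 ratio was 4.15 over GABAergic (3.53 to 5.09) and 3.60 over glutamatergic neurons (2.61 to 4.69), and 48.5% of cholinergic, 2.77% of GABAergic, 3.86% of glutamatergic neurons and 0.883% of muscle cells held a UMI. Ace differed less. It had 189, 495, 410 and 419 CPM in cholinergic neurons, against 207, 248, 210 and 230 CPM in GABAergic and 137, 233, 202 and 331 CPM in glutamatergic neurons. In pairs 2 to 4 the cholinergic value was the highest, whereas in pair 1 it lay below the GABAergic one. Neither log2 ratio passed the 2-fold threshold (0.88 over GABAergic, −0.15 to 0.99 over pairs; 0.83 over glutamatergic, 0.34 to 1.08).

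**Figure D1:**
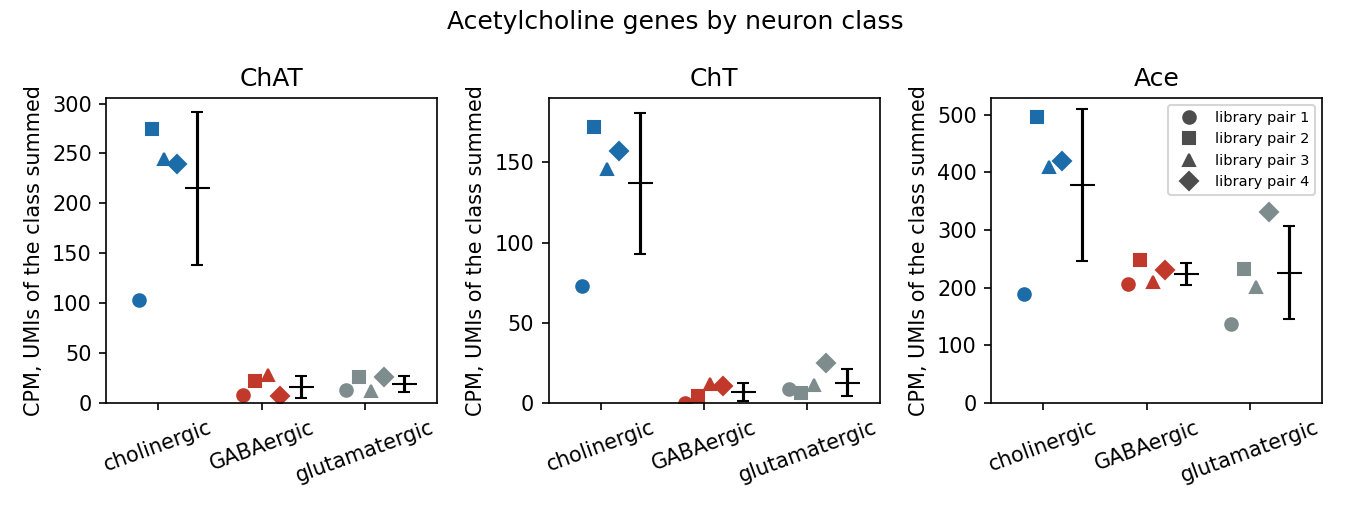
Levels of ChAT, ChT and Ace in cholinergic, GABAergic and glutamatergic neurons, in CPM on a linear axis that starts at 0; each point is 1 of the 4 library pairs (a marker each) and the bar with whiskers is their mean ± SD. ChAT and ChT are separate between the cholinergic neurons and both other classes (215 against 16.2 and 19.3 CPM for ChAT), whereas the values of Ace overlap.

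Most members held several of these genes at once, as far as the depth allowed. A UMI of ChAT was found in 996 members, of ChT in 831 and of Ace in 1209. ChAT or ChT was found in 1267 members (73.9%), both in 560 (32.7%) and all 3 in 465 (27.1%), while 199 members (11.6%) held none of them. These shares are limited by depth and are not shares of cells that express the genes.

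The threshold on VAChT set an edge through a continuum. The 438 members with exactly 2 VAChT UMIs had 183 CPM of ChAT, 114 CPM of ChT and 277 CPM of Ace, and 44.3% of them held ChAT. Just outside, the 544 cells with 1 VAChT UMI had 108 CPM of ChAT, 72.3 CPM of ChT and 204 CPM of Ace, and 36.2% held ChAT. The 1751 cells that met the other conditions without a VAChT UMI had 12.2 CPM of ChAT and 10.7 CPM of ChT. They differed in more than VAChT, with 216 CPM of elav. Cells with 1 VAChT UMI had 705 CPM of elav, and members with exactly 2 had 853 CPM. The 153 members with at least 10 VAChT UMIs had 334 CPM of ChAT. Both library numbers of a pair may count the same molecule, and in 213 (48.6%) of the members with exactly 2 VAChT UMIs 1 UMI came from each number. Of single UMIs of rarely detected genes, 15.6% were also found under the other number of the pair. The conditions on the other genes removed 1987 of 3701 cells that passed for VAChT and nSyb (53.7%), of which 947 held VGlut, 831 Gad1, 641 repo and 416 Vmat. Of the sensory channel genes of the rule, ppk was held by 297 of these cells, ppk26 by 289 and iav by 121. Shares of members with sensory genes given below leave those cells out.

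The nicotinic subunit genes had lower values in cholinergic than in GABAergic neurons, and few of them passed the 2-fold threshold. Of 10 nicotinic subunit genes, 2 were called lower and none higher over GABAergic neurons, where 212 of 9196 genes tested were called lower (2.31%) and 815 higher (8.86%). The median log2 ratio of the 10 was −0.70, and that of all genes was −0.03. Over glutamatergic neurons none of the 10 was called in either direction, where 197 of 9228 genes were called lower (2.13%) and 734 higher (7.95%), and the median was −0.32 beside −0.03 for all genes.

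The widely used alpha subunit nAChRalpha1 had 254, 712, 529 and 564 CPM in cholinergic neurons, against 620, 1052, 917 and 934 CPM in GABAergic and 295, 905, 645 and 1127 CPM in glutamatergic neurons. Within every pair the cholinergic value was the lowest of the 3. The log2 ratio was −0.73 over GABAergic and −0.51 over glutamatergic neurons, and neither passed 2-fold. nAChRalpha5 had 337, 1072, 902 and 877 CPM in cholinergic neurons, against 612, 1451, 1483 and 1368 CPM in GABAergic and 359, 1331, 889 and 1408 CPM in glutamatergic neurons. Pair 1 was the lowest of each class for both subunits. nAChRalpha6, the target of the insecticide spinosad, had a log2 ratio of −0.69 over GABAergic and −0.30 over glutamatergic neurons, and the beta subunit nAChRbeta1 had −0.74 and −0.33. nAChRalpha2 (−0.64 and −0.37), nAChRalpha3 (−0.28 and −0.45), nAChRalpha4 (−0.42 and −0.30) and nAChRbeta2 (−0.72 and −0.41) stayed inside the 2-fold threshold.

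Both called subunits passed the threshold over GABAergic neurons, and whether the 2 comparisons differ was not tested. nAChRalpha7, the relative of the vertebrate alpha7 subunit and part of the escape circuit of the adult fly, had 56.7, 182, 170 and 140 CPM in cholinergic neurons, against 168, 341, 316 and 299 CPM in GABAergic neurons (log2 ratio −1.01). In glutamatergic neurons it had 77.0, 176, 134 and 175 CPM, which overlaps with the cholinergic range (0.01). nAChRbeta3 was sparse, with 1.35, 11.1, 14.3 and 13.4 CPM in cholinergic neurons, against 0, 19.2, 46.6 and 21.4 CPM in GABAergic and 12.8, 14.4, 4.43 and 6.24 CPM in glutamatergic neurons (−1.17 and 0.39). In pair 1 the cholinergic CPM was above the GABAergic one, and the call rests on the UMI fraction added there. With the direction taken from CPM nAChRbeta3 was not called, which leaves nAChRalpha7 as the 1 subunit of 10 called lower. The UMIs of nAChRbeta3 came from 56 members.

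No muscarinic receptor gene or nicotinic regulator was called in either comparison with all cells. mAChR-A had 79.6, 222, 188 and 183 CPM in cholinergic neurons, against 207, 304, 278 and 256 CPM in GABAergic and 59.9, 188, 161 and 251 CPM in glutamatergic neurons. The cholinergic value was below the GABAergic one in each pair and overlapped with the glutamatergic ones. mAChR-B had 13.5, 23.2, 20.8 and 19.4 CPM in cholinergic neurons, against 0, 41.8, 42.6 and 44.2 CPM in GABAergic and 4.28, 11.3, 9.97 and 20.3 CPM in glutamatergic neurons. Without sensory and photoreceptor cells mAChR-B was called higher over glutamatergic neurons (26.0 against 12.5 CPM, 1.04, 0.19 to 1.44). qvr, a Ly-6 protein that modulates potassium channels and nicotinic receptors, had 239 CPM in cholinergic, 312 CPM in GABAergic and 205 CPM in glutamatergic neurons. The receptor chaperone Ric3 had 63.6, 76.0 and 72.7 CPM in the same classes.

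**Figure D2:**
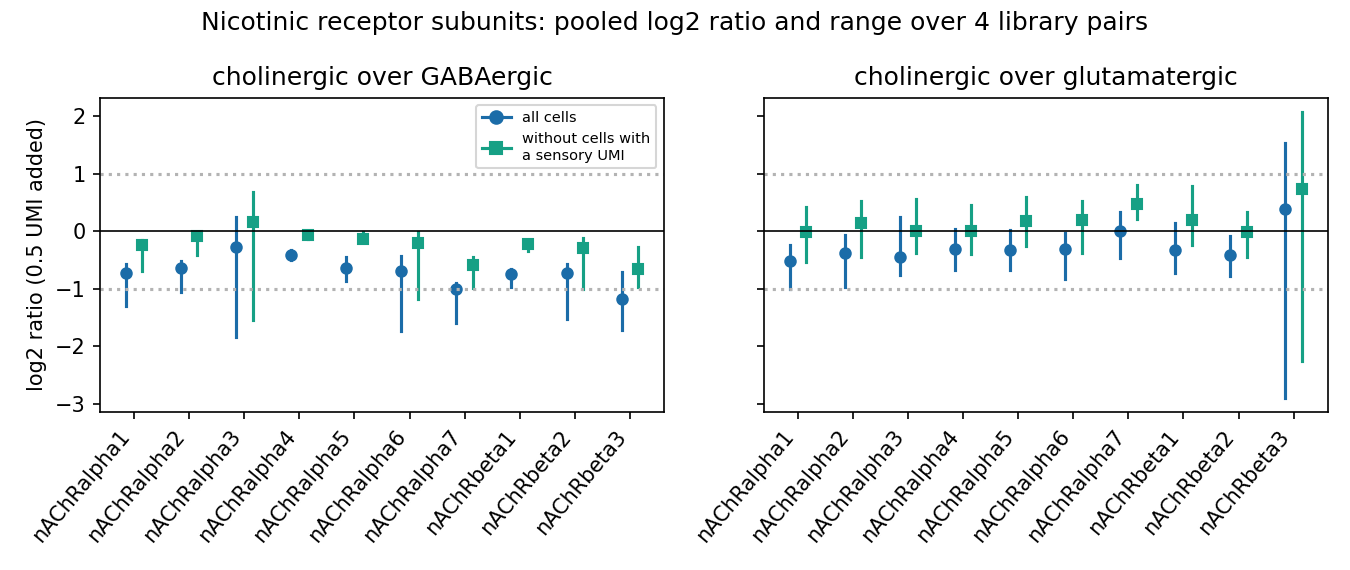
Log2 ratio of each nicotinic subunit gene in cholinergic over GABAergic and over glutamatergic neurons; points are the ratio of summed UMIs, lines run from the lowest to the highest of the 4 library pairs, and the 2 colours give all cells and the cells without a sensory UMI. With all cells the 10 subunits lie below 0 over GABAergic neurons (−0.28 to −1.17), and without the cells that held a sensory UMI 9 of them lie between −0.65 and −0.07 and nAChRalpha3 at 0.17.

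A share of the cholinergic neurons held RNA of genes known from peripheral sensory neurons. nompC and nan (channels of mechanosensory neurons, nan in the chordotonal organs), Tmc (a mechanosensory channel-like protein), and Ir25a and Ir76b (ionotropic co-receptors of chemosensory and other sensory neurons) were used to divide the members, a split chosen after their values had been seen. At least 1 UMI of these 5 genes was found in 306 members (17.9%; 23, 97, 75 and 111 in pairs 1 to 4), against 12 GABAergic (1.75%) and 18 glutamatergic neurons (2.89%). nompC was found in 206 members, Tmc in 129, Ir25a in 66, Ir76b in 52 and nan in 47. Tmc had 82.3, 75.8, 71.2 and 74.4 CPM in cholinergic neurons, against 0, 0, 1.33 and 1.34 CPM in GABAergic and 0, 2.05, 0 and 1.56 CPM in glutamatergic neurons. nan had 4.05, 7.62, 8.52 and 8.50 CPM in cholinergic neurons and no UMI in either other class. Members with a sensory UMI were deeper, with a median of 6720 UMIs and 1851.5 genes per cell, against 3101 UMIs and 1180 genes in the 1408 others, and a deeper cell has more chance to show a UMI of any gene.

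Members with a sensory UMI held far less receptor RNA for fast transmitters than the other members. All 10 nicotinic subunits were called lower, where 1112 of 8896 genes tested were called lower (12.5%) and 946 higher (10.6%), and the median log2 ratio of the 10 was −2.97 beside −0.21 for all genes. Summed over the 10 subunits, members with a sensory UMI had 177, 615, 485 and 558 CPM, against 2089, 4933, 4590 and 4273 CPM in the other members. No pair of the first set reached the lowest of the second. Without the members of 2 clusters that carried epidermal genes (clusters 11 and 16), an alternative chosen after the data had been seen, 265 members with a sensory UMI had 323, 722, 757 and 632 CPM, against 2332, 5119, 4970 and 4589 CPM in 1365 others. Then 9 of the 10 subunits were called lower, where 9.01% of all genes were, with a median of −2.69.

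nAChRalpha1 had 18.4, 88.7, 61.9 and 70.8 CPM in members with a sensory UMI (60.0 ± 29.8, SD, n = 4), against 389, 955, 789 and 808 CPM in the other members (735 ± 242), a log2 ratio of −3.59 (−4.27 to −3.42). After thinning, 8.82% of members with a sensory UMI held it, against 55.7% of the other members, so the difference was there at equal depth. nAChRbeta1 had 11.1, 32.0, 36.2 and 45.9 CPM in members with a sensory UMI, against 323, 451, 441 and 418 CPM in the others (−3.55). nAChRalpha5 (133 against 1274 CPM, −3.26) and nAChRalpha6 (121 against 1117 CPM, −3.21) were lower to a like degree. nAChRalpha4 was the least different of the 10, with 25.8, 53.0, 51.4 and 38.6 CPM against 91.5, 138, 116 and 130 CPM (−1.47).

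Receptors of other kinds were lower in members with a sensory UMI too. mAChR-A had 11.1, 53.0, 29.5 and 39.5 CPM in members with a sensory UMI, against 119, 287, 276 and 254 CPM in the other members (−2.80). Of 8 glutamate receptor genes, 7 were called lower and 1 higher (12.5 and 10.6% of all genes), with a median of −2.76. GluClalpha, an inhibitory chloride channel gated by glutamate, had 14.8, 96.1, 42.9 and 64.3 CPM against 353, 661, 547 and 605 CPM (−3.26), and the excitatory subunits GluRIB (38.2 against 389 CPM, −3.34) and GluRIA (17.7 against 169 CPM, −3.25) were lower too. Ekar, a kainate-type subunit, was the one called higher, at 20.8 against 9.19 CPM (1.18). Of 6 GABA receptor genes, 3 were called lower and none higher. Rdl, the main GABA-gated chloride channel, was one of them, with 343, 1485, 950 and 1318 CPM against 840, 2791, 2634 and 2487 CPM in the others (−1.11).

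Of 22 voltage-gated channel genes, 1 was called higher and 2 lower (Elk and Shal, both potassium channels), near or below the 10.6% and 12.5% of all genes, with a median of −0.30. para, the voltage-gated sodium channel, had 568, 3379, 2025 and 2857 CPM in members with a sensory UMI, against 538, 1924, 1753 and 1728 CPM in the other members. It was higher in 4 of 4 pairs and did not pass 2-fold (0.56, 0.08 to 0.81). tipE, an auxiliary subunit of para, had 88.5, 224, 166 and 198 CPM against 53.2, 133, 111 and 113 CPM (0.69). KCNQ, a slow potassium channel, was called higher, with 62.9 ± 35.1 CPM (SD, n = 4) in members with a sensory UMI, against 18.9 ± 9.84 CPM in the others (1.66, 1.21 to 2.22). Pair 1 was the lowest of its set for each of the 3 genes.

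Of 21 synaptic vesicle and active zone genes, 3 were called lower (Rab3, Snap25 and Synj), about the 12.5% of all genes, and none higher, with a median of −0.81. ChAT had 59.0, 229, 147 and 191 CPM in members with a sensory UMI, against 128, 291, 298 and 263 CPM in the other members (−0.64), and ChT had 51.6, 136, 86.7 and 89.1 CPM against 85.1, 187, 179 and 190 CPM (−0.88). Both were lower in 4 of 4 pairs without passing 2-fold. VAChT, which the rule used, had 492 against 1002 CPM. fne, an ELAV family RNA-binding protein, was called lower (1059, 1347, 868 and 1350 CPM in members with a sensory UMI, against 3976, 4400, 3651 and 3647 CPM, −1.74), while elav was not (726 against 1226 CPM, −0.76).

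**Figure D3:**
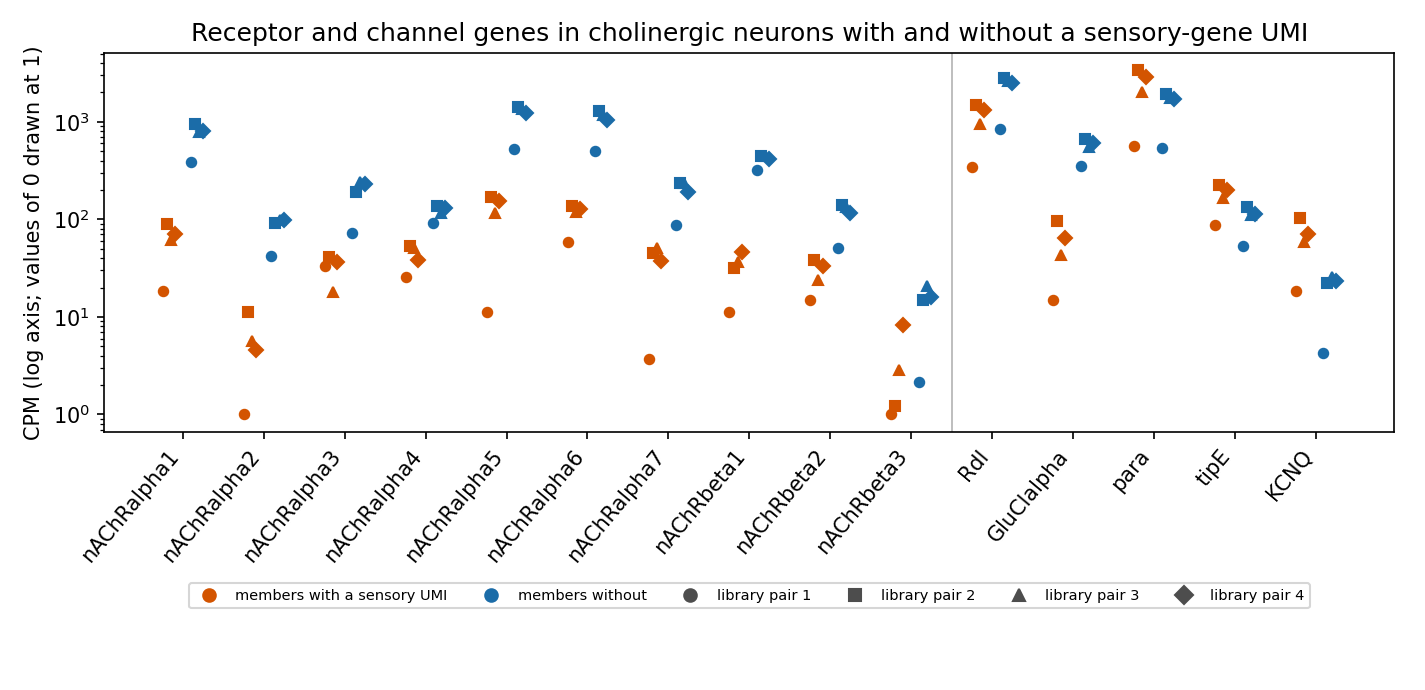
Levels of 10 nicotinic subunits, Rdl, GluClalpha, para, tipE and KCNQ in members with a sensory UMI and in the other members, in CPM on a log axis (a value of 0 is drawn at 1); each point is 1 of the 4 library pairs. The nicotinic subunits and GluClalpha lie lower in members with a sensory UMI, for example 18.4 to 88.7 against 389 to 955 CPM for nAChRalpha1, whereas para and KCNQ overlap or lie higher.

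A further 14 members, with a median of 26854 UMIs, held 3 or more UMIs of the light-sensing genes Rh5, Rh6 (both rhodopsins) or Arr1 (an arrestin), and no GABAergic or glutamatergic neuron did. The members without either kind of gene were 1397. When both kinds of cell were left out of all 3 classes, an alternative chosen after the data had been seen, none of the 10 nicotinic subunits was called in either comparison, where 111 of 8493 genes were called lower (1.31%) and 274 higher (3.23%) over GABAergic neurons and 133 of 8542 lower (1.56%) and 276 higher (3.23%) over glutamatergic neurons. The median of the 10 was then −0.13 over GABAergic and 0.24 over glutamatergic neurons. ChAT (4.01 and 3.74) and ChT (4.41 and 3.88) remained called higher in both. Of the 815 genes first called higher over GABAergic neurons 222 were called again (27.2%), and of the 734 over glutamatergic neurons 177 (24.1%). With only the cells that held a sensory UMI left out, small differences in the nicotinic subunits kept their direction over GABAergic neurons. Every subunit except nAChRalpha3 was lower there in all 4 pairs, with 0.5 UMI added (nAChRalpha7 −0.58, −0.98 to −0.44). Over glutamatergic neurons no subunit was lower in all 4 pairs.

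The genes with the largest ratios among all members included DCX-EMAP, Rh5, Rh6, ss, meru and several uncharacterised genes. DCX-EMAP, a microtubule-binding protein of mechanoreceptor cilia, had 96.2 CPM in 182 cholinergic neurons and no UMI in GABAergic neurons, which makes it at least 80.6-fold higher against a floor of 3 UMIs over the class. ss (spineless), a bHLH-PAS transcription factor with roles in antennal and photoreceptor identity, had 63.4, 81.7, 50.4 and 55.6 CPM in cholinergic neurons, in 254 cells, and no UMI in either other class (at least 52.2-fold higher over GABAergic and 57.1-fold over glutamatergic neurons). meru, known from sensory organ precursors, was found in 238 members (67.3 CPM, at least 56.4-fold over GABAergic neurons). These levels were lower once sensory and photoreceptor cells were left out. DCX-EMAP then had 28.0 CPM in 41 members, ss 25.2 CPM in 80 and meru 13.4 CPM in 45. Each was still called higher over GABAergic neurons. CG13251 had 71.9 CPM in 150 cells and no UMI in either other class (at least 60.3-fold and 66.0-fold). Among the same leading genes, TwdlQ had 74.1% of its UMIs in the members from 1 cell.

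Rare cells carried the photoreceptor genes. Rh6 had 112 CPM from 21 cells (at least 103-fold over glutamatergic neurons), and Gbeta76C, the eye's G protein beta subunit, had 91.7 CPM from 15 cells. Arr1 had 197 CPM from 17 cells, and Rh5, which was found in 12 cells, was at least 53.3-fold higher over GABAergic neurons. The channel trpl came from 15 cells. Of 9 photoreceptor genes tested, 6 were called higher in each comparison (8.86% of all genes over GABAergic and 7.95% over glutamatergic neurons), as were 6 of 8 sensory cilium genes over GABAergic and 5 of 8 over glutamatergic neurons. Of the peripheral sensory channels and receptors 5 of 10 were called higher and 1 lower (TrpA1, not called with the direction taken from CPM) over GABAergic neurons, and 6 of 9 were called higher over glutamatergic neurons.

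Among the strongest calls in the other direction, VGAT, the vesicular GABA transporter, had 18.9, 35.3, 24.5 and 23.4 CPM in cholinergic neurons, against 222, 323, 309 and 260 CPM in GABAergic neurons (−3.45), and 25.7, 28.7, 27.7 and 31.2 CPM in glutamatergic neurons, inside the cholinergic range. CG14989 had 114 CPM in cholinergic neurons against 14512 CPM in GABAergic neurons (−6.99). In the annotation BDGP6.54 it lies on chromosome 3L from 4087581 to 4092706 on the forward strand. This span overlaps that of Gad1 (4074077 to 4088744, reverse strand) by 1164 bases. Their exons do not overlap. The CG14989 exon inside the Gad1 span ends at 4087704, and the nearest Gad1 exon starts at 4088212. Members had to hold no UMI of Gad1, and whether the difference of CG14989 comes from that condition was not tested. The bHLH gene Fer3 had 1.72 CPM in cholinergic and 78.7 CPM in GABAergic neurons, and HLH3B had 2.54 CPM in cholinergic, 63.6 CPM in GABAergic and 40.3 CPM in glutamatergic neurons. Over glutamatergic neurons, twit, which encodes a Ly-6 protein, was lower, with 76.7 against 572 CPM (−2.90), as were CG14274 (3.45 against 102 CPM) and CG3014 (3.55 against 66.9 CPM). Single cells made some of these calls. All 99 UMIs of CG4734 came from 1 GABAergic cell, 99.7% of those of Edg78E from 1 GABAergic cell, 85% of those of CG8629 from 1 glutamatergic cell, and 64.7% of those of Fpps from 1 glutamatergic cell. CG4734, Edg78E and CG8629 were not called with the direction taken from CPM.

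Transcription factors of neuronal identity differed in both directions. Of 71 tested over GABAergic neurons, 16 were called higher and 9 lower (8.86 and 2.31% of all genes), and of 70 over glutamatergic neurons, 14 and 5 (7.95 and 2.13%). Without the sensory and photoreceptor cells, 17 of 70 were called higher and 8 lower over GABAergic and 11 of 66 higher and 5 lower over glutamatergic neurons, shares above the 3.23% and 3.23% of all genes called higher and the 1.31% and 1.56% called lower.

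The POU-domain factor acj6, known from olfactory neurons as a regulator of the cholinergic gene locus, had 86.3, 121, 98.8 and 67.7 CPM in cholinergic neurons, against 7.66, 13.6, 24.0 and 12 CPM in GABAergic and 17.1, 7.19, 2.22 and 14.0 CPM in glutamatergic neurons. The cholinergic values lay above all others (log2 ratio 2.55 and 3.52), and 262 members held it. Without sensory and photoreceptor cells it had 124 CPM in cholinergic, 12.3 CPM in GABAergic and 8.33 CPM in glutamatergic neurons (3.32 and 3.86). unc-4, a homeodomain factor, had 21.6, 29.4, 35.1 and 33.1 CPM in cholinergic neurons, against 0, 6.78, 2.66 and 9.37 CPM in GABAergic and 12.8, 3.08, 8.86 and 7.81 CPM in glutamatergic neurons (2.37 and 2.17). kn (knot), a factor of the COE family, had 312, 315, 282 and 243 CPM in cholinergic neurons, against 7.66, 53.1, 67.9 and 41.5 CPM in GABAergic and 94.1, 23.6, 54.3 and 48.4 CPM in glutamatergic neurons (2.44 and 2.62), in 408 members. None of the 3 overlapped with either class.

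The calls of other factors differed between the comparisons or with the sensory cells. otp, a homeodomain factor, had 48.6, 48.5, 48.4 and 48.0 CPM in cholinergic neurons, against 0, 7.90, 7.99 and 12 CPM in GABAergic and 38.5, 31.8, 16.6 and 32.8 CPM in glutamatergic neurons. It was called higher over GABAergic neurons (2.43) and missed 2-fold over glutamatergic ones (0.80), where without sensory and photoreceptor cells it was called too (70.9 against 28.8 CPM, 1.29, 0.85 to 2.15). Lim3 and tup (islet), LIM-homeodomain factors known from motor neurons, were called higher over GABAergic neurons (2.49 and 1.56) and not over glutamatergic neurons (0.28 and 0.08), the class that holds the motor neurons of the fly. peb (hindsight) had 267, 219, 192 and 201 CPM in cholinergic neurons, against 23.0, 15.8, 3.99 and 38.8 CPM in GABAergic and 38.5, 8.21, 74.2 and 1.56 CPM in glutamatergic neurons (3.41 and 2.75). Without sensory and photoreceptor cells peb had 53.8 CPM in members, and its ratio over glutamatergic neurons was no longer called (0.74, −1.08 to 4.46). pros (prospero) had 331 CPM in cholinergic, 131 CPM in GABAergic and 103 CPM in glutamatergic neurons (1.33 and 1.68), and without those cells it was not called over GABAergic neurons (1.19, −0.04 to 2.07).

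Dbx, vg, en and inv were called lower over GABAergic neurons. The homeodomain gene Dbx had 9.44, 6.23, 2.73 and 3.64 CPM in cholinergic neurons, against 68.9, 65.5, 107 and 75.0 CPM in GABAergic neurons (−4.13), and vg (vestigial) had 1.35, 5.19, 10.9 and 12.8 CPM against 61.2, 73.4, 101 and 116 CPM (−3.36). Neither overlapped. en (engrailed) lay between the classes, with 22.9, 9.0, 11.2 and 15.2 CPM in cholinergic neurons, against 115, 63.2, 46.6 and 37.5 CPM in GABAergic (−2.06) and 8.56, 0, 0 and 0 CPM in glutamatergic neurons (3.82, from 1 cell with a UMI). Its paralogue inv had 24.3, 10.4, 15 and 11.8 CPM in cholinergic, 107, 31.6, 43.9 and 32.1 CPM in GABAergic and 0, 5.13, 0 and 0 CPM in glutamatergic neurons.

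**Figure D4:**
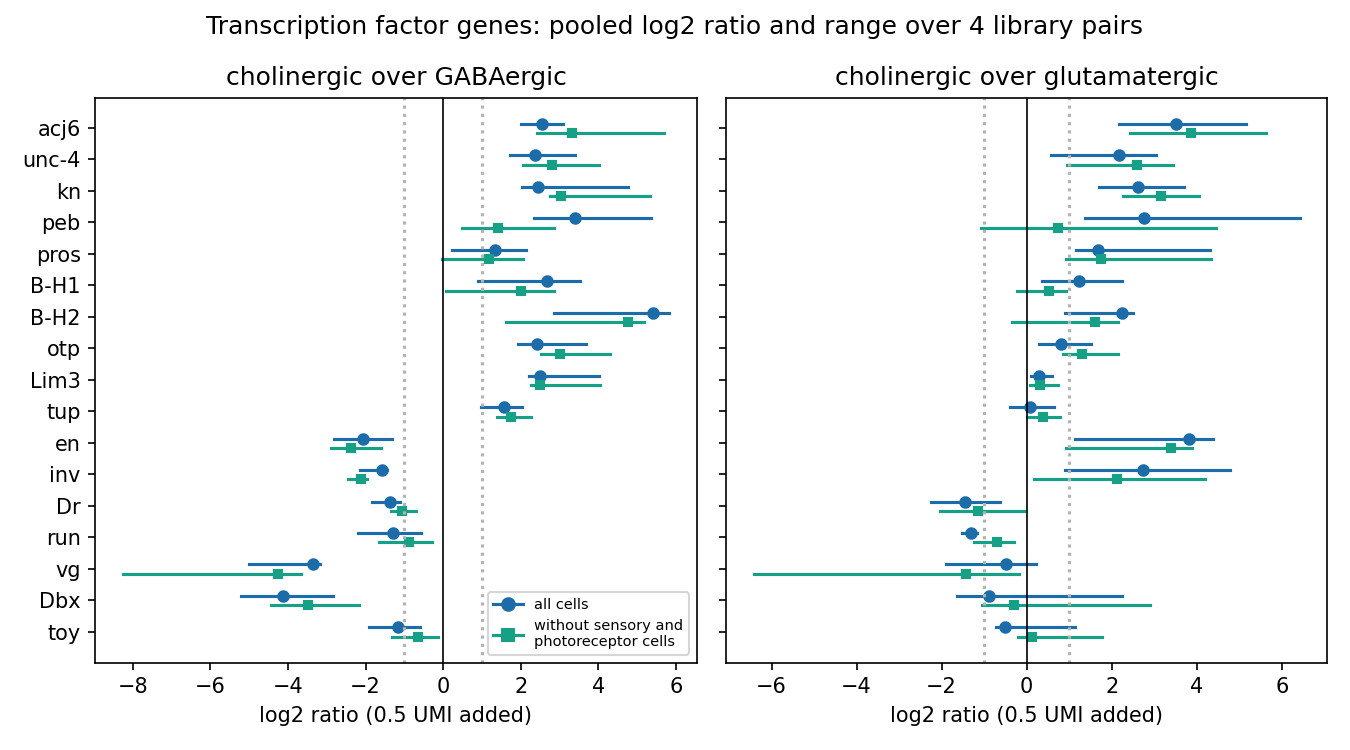
Log2 ratio of 17 transcription factor genes in cholinergic over GABAergic and over glutamatergic neurons; points are the ratio of summed UMIs, lines run from the lowest to the highest of the 4 library pairs, and the 2 colours give all cells and the cells without sensory and photoreceptor cells. acj6, unc-4 and kn lie above 0 in both comparisons and under both sets of cells, whereas Dbx and vg lie below 0 over GABAergic neurons (−4.13 and −3.36 with all cells).

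Hox genes, which give neurons their segmental identity, were mostly not called. Of the 8, only pb (proboscipedia) was called with all cells, lower over GABAergic neurons where 2.31% of all genes were (64.8, 33.6, 25.6 and 43.1 CPM in cholinergic neurons, against 99.5, 125, 89.2 and 73.6 CPM in GABAergic neurons, −1.41), and none over glutamatergic neurons. Without sensory and photoreceptor cells Dfd was also called lower over GABAergic neurons (21.2 CPM in cholinergic against 48.2 CPM in GABAergic neurons, −1.18, −1.47 to −0.48). Antp had 423 CPM in cholinergic, 412 CPM in GABAergic and 297 CPM in glutamatergic neurons, Ubx 387, 543 and 434 CPM, abd-A 224, 282 and 174 CPM, and Abd-B 179, 198 and 130 CPM. No synaptic vesicle gene of 21 and no voltage-gated channel gene of 22 was called in either comparison.

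Recognition proteins of the dpr and DIP families, which pair on the cell surface and match synaptic partners, differed for a few genes. Of 31 genes, 2 were called higher and 4 lower over GABAergic neurons (8.86 and 2.31% of all genes), and 3 higher and none lower over glutamatergic neurons (7.95 and 2.13%). Without sensory and photoreceptor cells 2 were called higher and 2 lower over GABAergic neurons (3.23 and 1.31% of all genes). Over glutamatergic neurons 5 were then called higher and none lower (3.23 and 1.56% of all genes). DIP-eta had 48.6, 81.0, 69.2 and 85.3 CPM in cholinergic neurons, against 0, 19.2, 5.33 and 8.03 CPM in GABAergic and 0, 6.16, 5.54 and 26.5 CPM in glutamatergic neurons (2.81 and 2.89), without overlap. DIP-zeta had 55.3, 97.6, 50.1 and 46.8 CPM in cholinergic neurons, against 45.9, 29.4, 18.6 and 42.8 CPM in GABAergic and 0, 7.19, 6.65 and 12.5 CPM in glutamatergic neurons (1.02 and 3.02). DIP-kappa was called over glutamatergic neurons only, with 137 CPM in cholinergic, 121 CPM in GABAergic and 59.2 CPM in glutamatergic neurons (0.18 and 1.2). DIP-beta (72.3 CPM in cholinergic against 190 CPM in GABAergic neurons, −1.39) and DIP-epsilon (10.7 against 43.4 CPM, −2.02) were called lower.

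Neuropeptide genes came from few cells. Of 31 tested over GABAergic neurons, 2 were called higher and 2 lower (8.86 and 2.31% of all genes), and of 30 over glutamatergic neurons, 4 higher and 1 lower (7.95 and 2.13%). AstC (allatostatin C) had 10.8, 68.5, 50.4 and 99.3 CPM in cholinergic neurons, against 0, 0, 0 and 10.7 CPM in GABAergic and 0, 2.05, 1.11 and 0 CPM in glutamatergic neurons. It was found in 32 members, and 18 of them with at least 10 UMIs held 94.3% of its UMIs. Tk (tachykinin) was found in 39 members (29.7, 23.9, 36.5 and 18.5 CPM), against 1 GABAergic and 5 glutamatergic neurons. sNPF (short neuropeptide F) had 49.9, 103, 93.1 and 79.5 CPM in cholinergic neurons, against 23.0, 57.6, 74.6 and 32.1 CPM in GABAergic and 47.1, 17.5, 13.3 and 4.68 CPM in glutamatergic neurons, and was called over the glutamatergic class only. Proc (proctolin), a transmitter at embryonic and larval muscle, was called lower in both, with 6.75, 36.3, 51.5 and 40.7 CPM in cholinergic neurons, against 91.9, 191, 90.5 and 143 CPM in GABAergic (−1.82) and 17.1, 423, 214 and 470 CPM in glutamatergic neurons (−3.04). Nplp1 was called lower over GABAergic neurons (21.1 against 187 CPM, −3.14).

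Clustering of the 1714 members on 1500 variable genes gave 18 clusters of 13 to 255 cells. The genes that define a cluster were chosen on the same cells, so they are a description and not a test. A cluster was named only where at least 3 markers of a cell type's list stood out and its leading genes did not go against the name.

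Peripheral sensory neuron-like cells made up clusters 8 and 10. Cluster 8 (101 cells, 6 of 11 sensory markers) had CG4962, CAH1 and CG34309 as its first genes, and 447 CPM of Ir76b in the cluster against 10.5 CPM in the other members, 349 against 11.9 CPM of Ir25a, and 174 against 4.86 CPM of Poxn, a factor that directs external sense organs toward chemosensory fate. Cuticle genes were among its leading genes too, with 3764 against 96.2 CPM of Cpr62Bb and 1748 against 86.8 CPM of TwdlE. Cluster 10 (84 cells, 5 of 11 markers) had 79.9 CPM of nan in the cluster against 0.336 CPM in the other members, and 258 against 51.6 CPM of nompC. Cluster 7 (118 cells) held 2 sensory markers and stays unnamed. It had 847 against 29.8 CPM of Cib2, whose vertebrate relative partners the Tmc channels of hair cells, 595 against 35.3 CPM of Tmc and 717 against 171 CPM of peb. A sensory UMI was found in 73 of 118 cells of cluster 7 (61.9%), 72 of 101 of cluster 8 (71.3%) and 77 of 84 of cluster 10 (91.7%). It was also found in 32 of 64 cells of cluster 11 (50.0%) and 9 of 20 of cluster 16 (45.0%), deep cells with epidermal genes (median 7176.5 and 16174 UMIs) and 109 and 37.1 CPM of nAChRalpha1. nAChRalpha1 had 55.1, 34.9 and 8.53 CPM in clusters 7, 8 and 10, against 1245, 1567 and 1212 CPM in clusters 1, 2 and 5. ChAT had 220, 339 and 144 CPM in clusters 7, 8 and 10.

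Photoreceptor-like cells made up cluster 18, the smallest, with 13 cells and a median of 26313 UMIs (8 of 8 markers). It had 2100 against 13 CPM of Rh6, 1131 against 10.2 CPM of Rh5 and 3688 against 22.2 CPM of Arr1. Rh5 and Rh6 are the rhodopsins of the larval eye. ChAT was found in all 13 cells (100%, 168 CPM).

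Other clusters were marked by lineage and segment genes. Cluster 14 (36 cells, none from pair 1) was mushroom body neuron-like, with 4 of 5 markers. It had 341 against 1.76 CPM of prt, a vesicular transporter of mushroom body neurons, 341 against 9.21 CPM of ey and 1121 against 92.2 CPM of dac, which are transcription factors of the same cells. Cluster 2 (192 cells) was led by DIP-zeta (293 against 48.9 CPM), with unc-4 (139 against 25.0 CPM) and nAChRalpha3 (525 against 128 CPM). Cluster 15 (30 cells, none from pair 1) had 3459 against 249 CPM of kn and the Iroquois factors ara and caup among its leading genes. Cluster 5 (141 cells) had 798 against 125 CPM of Abd-B and 940 against 223 CPM of kn, cluster 4 (148 cells) had 694 against 207 CPM of abd-A and 1066 against 362 CPM of Ubx, and cluster 13 (55 cells) had 232 against 30.4 CPM of Dfd, a Hox gene of the head. Cluster 1, the largest (255 cells), was led by bma (670 against 110 CPM), rad and jeb, the secreted ligand of the receptor Alk.

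**Figure D5:**
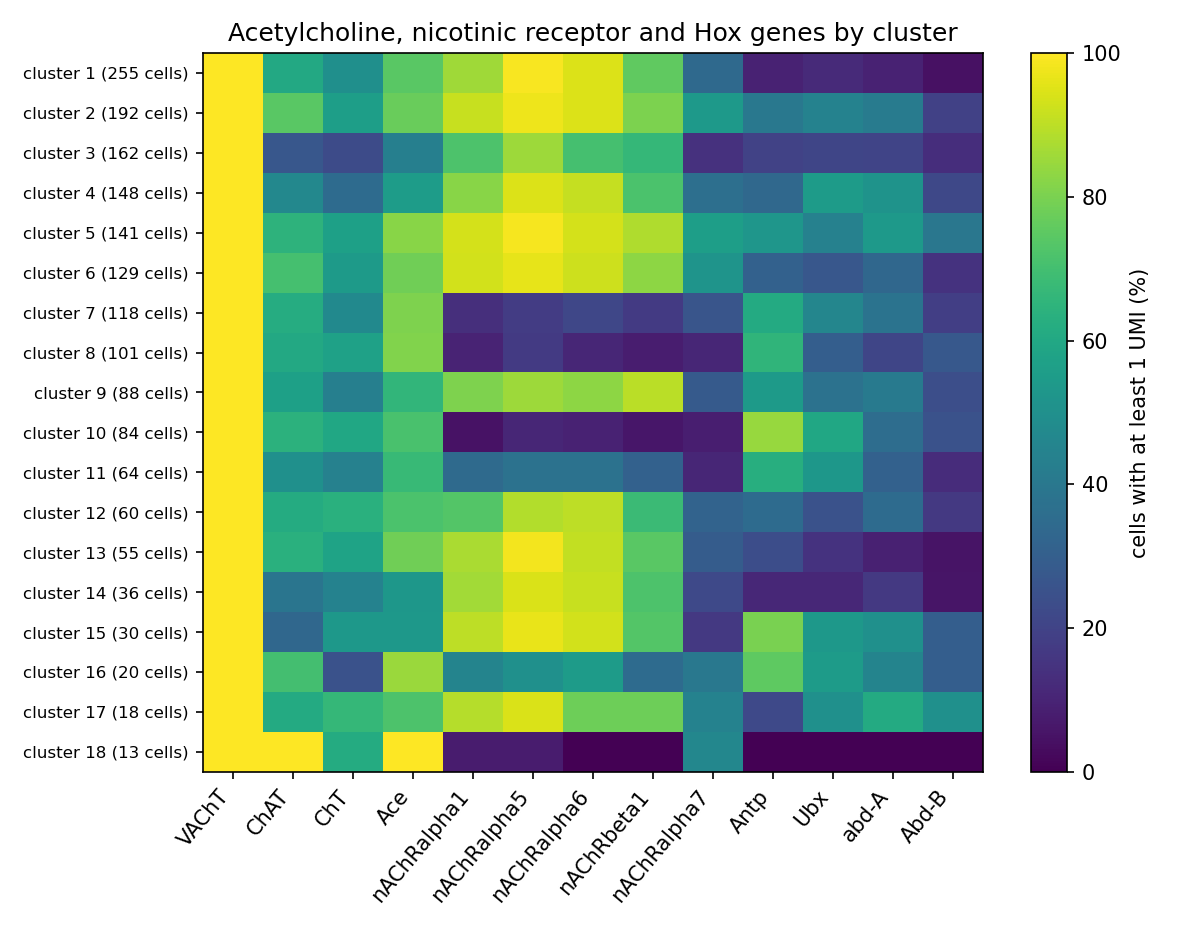
Share of cells with at least 1 UMI, in percent, of VAChT, ChAT, ChT, Ace, 5 nicotinic subunits and 4 Hox genes in each of the 18 clusters of cholinergic neurons; rows are clusters and colour gives the share. VAChT is 100% by the rule, and the nicotinic subunits are found in few cells of clusters 7, 8 and 10, whereas ChAT is found in 61.9, 60.4 and 64.3% of them.

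Several clusters carried markers of other cell types. Cluster 3 (162 cells, 38 of them from pair 1) had 6 of 6 muscle markers, with 553 against 64.4 CPM of Mhc. Cluster 6 (129 cells) had 3 of 5 glia markers, among them Gat, and 626 against 38.6 CPM of the glial glutamate transporter Eaat1. Cluster 9 (88 cells, 27 from pair 1) had 4 of 4 neuroblast markers and 365 against 8.38 CPM of cas, a temporal factor of neuroblasts. Cluster 12 (60 cells) had 3 of 4 hemocyte markers and 7885 against 37.9 CPM of Ppn, and clusters 11 and 16 had 2 of 4 markers of epidermis and trachea. In cluster 11, 3 of 6 muscle markers stood out too, but none was higher in more than 2 pairs. Cluster 17 (18 cells, median 19732 UMIs) had 276 against 4.15 CPM of the fat body gene CG7227. It also had 107 against 0.319 CPM of PGRP-SD and 6338 against 1041 CPM of Col4a1. Cluster 12 also had 222 against 2.23 CPM of nAChRbeta3, so 98 of the 119 UMIs of that subunit in the members came from cells with hemocyte genes. Doublets were not removed, and their part in these clusters was not tested.

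Marker lists of other cell types were summed to show how much of their RNA the members held. Summed over the list, the muscle markers ranged from 616 to 1120 CPM over the pairs in cholinergic neurons, 622 to 1993 CPM in GABAergic and 752 to 2768 CPM in glutamatergic neurons, and 4031 CPM in all other kept cells. Hemocyte and fat body markers had 818 to 2738, 3317 to 4157 and 1579 to 2809 CPM in the same 3 classes, glia markers 140 to 295, 161 to 235 and 55.6 to 1099 CPM, and neuroblast and division markers 118 to 224, 120 to 360 and 173 to 244 CPM. All other kept cells had 10013, 506 and 254 CPM of the same lists. None of these markers was at 0 in any class except repo, which the rule set to 0. Of 7 glia markers tested, 2 were called higher over GABAergic neurons (alrm and Gs2), where 8.86% of all genes were. Over glutamatergic neurons 1 was (moody), where 7.95% of all genes were, and the part of glial RNA in the comparisons was not tested. Markers of epidermis, trachea and gut had 415 to 11494 CPM in cholinergic neurons, 173 to 566 CPM in GABAergic and 107 to 441 CPM in glutamatergic neurons, and 1505 CPM in all other kept cells. The highest value was that of pair 1 and came from the cuticle protein gene TwdlF, of which 1 cell held 53.0% of the UMIs of the class. Of 8 such genes tested, 4 were called higher over each class, where 8.86% of all genes were over GABAergic and 7.95% over glutamatergic neurons. The part of cuticle-forming cells in this was not tested. The marker lists used for the clusters are shorter and hold neither TwdlF nor fat body genes. By those lists of muscle, hemocyte, glia, neuroblast, and epidermis and trachea, cells with over 1% of their UMIs in any list were counted. They were 41 cholinergic (2.39%), 16 GABAergic (2.33%) and 13 glutamatergic neurons (2.09%).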

How the data were processed

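Single-cell 3′ libraries of whole embryos (8 samples, 4 replicates in 2 lanes each) were processed with Cell Ranger 3.1.0 against BDGP6, per the labels and methods. The authors deposited 1 matrix of raw UMI counts of 17717 features in 73765 barcodes under library numbers 1 to 8. Whether the aggregate equalised depth is not given in the sources used here. Library totals were 26261446 to 36130722 UMIs and the matrix total was 252748748.

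Barcodes of numbers n and n + 4 were summed (38531 cells, 3297 of them under 1 number only), so a molecule sequenced under both numbers may count as 2 UMIs. Cells with at least 200 genes and under 20% mitochondrial UMIs were kept (27932). Doublets were not removed. No number could be assigned to a sample, so the matrix counted as 1 pooled sample and no replicate test was made. UMIs were summed per class and library pair, scaled to CPM, and log2 ratios were taken with 0.5 UMI added to each sum. Genes with at least 20 UMIs over both classes were compared and the 9 genes of the class rules left out. Floors were 3 UMIs, and shares and floors cover counting error only. Clusters came from scanpy 1.11.5 with leidenalg 0.10.2 (1500 variable genes, 30 principal components, resolution 0.8). Scripts ran in Python 3.11.15 with numpy 2.4.6, scipy 1.17.1, pandas 2.3.3 and matplotlib 3.10.9, and were tested on simulated data.

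The members, gene lists and comparisons were chosen with earlier results of these data known, and the division by sensory UMIs, the alternatives without sensory, photoreceptor, epidermal or other-marker cells and the calls by CPM direction were chosen after seeing the data. Genes named were those of the rule and of the acetylcholine lists, called genes with the largest ratios and at least 50 UMIs in the class where they were higher, the called or highest genes of each list, and the leading genes and markers of clusters; some were left out for length. The members with a sensory UMI and the receptor genes compared between them and the other members were named after their values had been seen. Gene positions are from the annotation BDGP6.54, not from the files.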

Additional observations from a re-analysis of the deposited data

Results flagged for a closer look

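In 3 of 50 sets of 4 library pairs, 1 pair lay far from the other 3 (by the gap to the nearest pair as a share of the whole range), where chance gives about 1 in 20. All 3 concern library pair 1. Cholinergic neurons made up 13.4% of its nSyb cells, whereas the nearest other pair had 19.5% (gap over range 0.847). nAChRalpha2 had 27.0 CPM in its cholinergic neurons, whereas the nearest other pair had 65.8 CPM (0.919). The markers of epidermis, trachea and gut summed to 11494 CPM in its cholinergic neurons, whereas the nearest other pair had 1368 CPM (0.914), and 1 cell held 53.0% of the UMIs of TwdlF in the class.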

How the results depend on the processing

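The number of cholinergic neurons was 1254 to 2258 under 7 alternatives (other VAChT minimums, filters, marker limits and the lower library numbers alone), against 1714, and 3701 without the conditions on other genes. Counts of called genes depended on depth and on the sensory cells. Over GABAergic neurons 815 genes were called higher and 212 lower. These counts became 341 and 88 after thinning to 1000 UMIs and 274 and 111 without sensory and photoreceptor cells, and 116 and 134 were called lower with at least 100 UMIs and without cells above the 95th percentile of UMIs. The genes called changed too. Thinning kept 31.9% of those first called higher and 22.6% of those first called lower, and the lower library numbers alone kept 72.3 and 44.8%. Over glutamatergic neurons 734 were called higher and 197 lower, which became 374 and 106 after thinning, 276 higher without sensory and photoreceptor cells, and 90 lower with at least 100 UMIs. Of the genes first called higher and lower there, thinning kept 32.4 and 19.3%, and the lower library numbers alone 63.9 and 23.4%. Leaving out 1 library pair at a time gave 818 to 1158 higher and 253 to 285 lower over GABAergic neurons, 758 to 1021 higher and 204 to 429 lower over glutamatergic neurons (429 without pair 4), and 2049 to 2335 higher and 1955 to 2215 lower over all other kept cells. ChAT was found in 25.8% of thinned members, against 58.1% at full depth. With the direction in each pair taken from CPM, 1016 genes were called higher and 155 lower over GABAergic and 833 and 153 over glutamatergic neurons, and CG4734, Edg78E, ouib and CG8629 were not called. The number of clusters was 12 to 23. The 84 log2 ratios of named genes, each gene counted in each comparison that names it, gave 1176 values under the alternatives, of which 1040 moved by less than the spread between pairs, 125 moved more and 11 reversed. CG4734 (−6.44 over GABAergic neurons, and −7.25 to 1.28 with 1 library pair left out at a time) turned to 1.28 without pair 4, 0.99 without the deepest cells, 1.01 with a minimum of 3 UMIs and 0.53 with the lower library numbers alone. Edg78E turned to 3.13 over GABAergic and ouib to 2.27 over glutamatergic neurons without the deepest cells, and nom to 0.11 over glutamatergic neurons after thinning. Without sensory and photoreceptor cells the ratios of Rh5 (−1.35) and Arr1 (−0.51) changed sign over GABAergic neurons, and those of Arr1 (−0.40) and Gbeta76C (−1.24) over glutamatergic neurons. Photoreceptor cells were left out by their UMIs of Rh5, Rh6 and Arr1, so the loss of Rh5 and Arr1 was fixed in advance. Few UMIs of these genes were left, and the changed signs give no direction for the other members. All ratios were also taken within the 4 library pairs, and a test with a replicate block was not run because no library number is assigned to a sample, so the matrix counts as 1 pooled sample.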
